A study of Mus musculus with 16 samples.

Results

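Gene expression in subcutaneous white adipose tissue of old mice whose adipocytes lacked Nampt was compared with that of old control mice. The comparison took 10 of the 16 libraries of the study, 5 from old ANKO mice (adipocyte-specific Nampt knockout) and 5 from old flox/flox controls, picked by the genotype and age in their labels, and all 21206 genes that passed the filter on low counts. Both groups were C57BL/6J, 22 to 27 months old, kept at room temperature on regular chow, and female according to the series title. Both carried floxed Nampt alleles. The ANKO mice also carried a Cre recombinase transgene driven by adiponectin sequences, which are active in adipocytes, so that the other cells of the depot keep the gene. The labels do not say whether controls carried a transgene or whether a library stands for 1 animal. The p-values therefore refer to the spread among these samples, which may be technical. A further 3 young ANKO and 3 young control libraries, from mice aged 2 months, entered the shared estimate of the spread and 1 comparison between ages. RNA was taken from the whole tissue, and ribosomal RNA was removed before sequencing.

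Nampt makes nicotinamide mononucleotide from nicotinamide, the rate-limiting step by which mammalian cells recycle nicotinamide into NAD. NAD carries electrons in glycolysis, the TCA cycle and fatty acid oxidation, and sirtuins, PARP enzymes and the ectoenzyme CD38 consume it and release nicotinamide. White adipocytes store triglyceride in a single droplet, release fatty acids on beta-adrenergic stimulation and secrete hormones such as adiponectin, leptin and adipsin, under the transcription factors PPARgamma and C/EBPalpha.

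Old libraries held 19277403 to 30779298 reads. Old controls 2 and 5 were the deepest and stood apart from the other 8 on the first principal component, which held 35.1% of the variance. These 2 controls also had the highest summed adipocyte markers (31146 and 38487 CPM, read counts scaled to the TMM-adjusted library size, against 12828 to 22983 CPM in the other controls) and the lowest summed T and NK cell markers (189 and 141 CPM against 697 to 784 CPM). Named genes that lose their call or whose fold moves by over 1.5 times without this pair are given both ways, as are lists whose counts of calls or printed medians do. A gene was called changed at an adjusted p under 0.05 in edgeR's quasi-likelihood F-test, and every fold change is on the log2 scale as ANKO over control, with its standard error. In all 2337 genes were called, or 11.0% of those tested, 633 higher (2.99%) and 1704 lower (8.04%), with a median over all genes of 0.01. Scaling by library totals alone raised that median by 0.13 and gave 926 higher and 1199 lower genes. The call held without each old library in turn for 1277 genes, 299 higher and 978 lower. Without old controls 2 and 5 there were 498 higher and 741 lower, and without old control 5 there were 1539 calls in all. RNA of a whole tissue cannot tell fewer cells of a type from less RNA per cell.

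**Figure D1:**
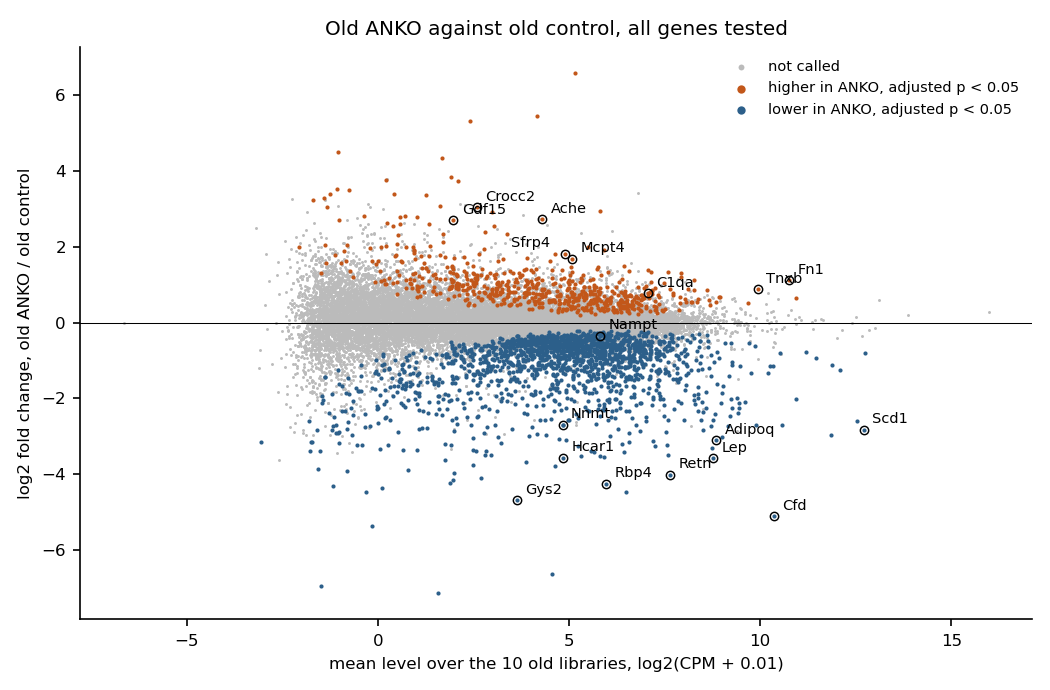
Each point is 1 of the 21206 genes, placed by its mean level over the 10 old libraries (x axis, log2 CPM) and its log2 fold change of old ANKO over old control (y axis); colour marks the 633 genes called higher and the 1704 called lower. Genes lower by 4-fold or more (248) outnumber those higher by as much (45), and reach from low to very high levels, as the labelled Scd1 and Cfd show.

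Nampt itself (chromosome 12, 32819545 to 32853349, GRCm38) was at 47.6, 48.2, 52, 45 and 54.1 in ANKO libraries 1 to 5, and at 61.2, 76.9, 47.2, 50.7 and 78.6 (CPM, as for all levels that follow, in library order 1 to 5) in the controls. Controls 3 and 4 lay inside the ANKO range, and controls 2 and 5 were highest. The difference did not pass the test (log2 fold change -0.35 ± 0.13, edgeR adjusted p = 0.0945). Without controls 2 and 5 it was -0.08, adjusted p = 0.738. It passed where control 3 was left out (-0.44, adjusted p = 0.0188) and where control 4 was left out (-0.42, adjusted p = 0.0443). These reads cover the whole gene in all cells of the tissue, and the labels do not name the floxed exons.

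Among the other genes that make NAD, small falls stood beside 1 rise. Of 21 members tested in a list of NAD synthesis, 1 was higher and 3 were lower, and the median was 0.14. Nmnat1, the nuclear enzyme that turns nicotinamide mononucleotide into NAD, was at 8.83, 11.7, 8.09, 9.12 and 10.7 in controls against 4.27, 7.35, 5.64, 6.29 and 6.99 in ANKO libraries. The groups did not overlap (log2 fold change -0.67 ± 0.17, edgeR adjusted p = 0.0214), but the call was lost without old control 2 or 5 or old ANKO 3. Nmnat3, the mitochondrial form, fell from 13 to 16.2 CPM in controls to 8.77 to 12.2 CPM in ANKO libraries (-0.42 ± 0.12, adjusted p = 0.0345). Nmnat3 lost its call without old control 1, 2 or 4 or old ANKO 1, 3 or 4. Nadk, the cytosolic kinase that makes NADP, had overlapping groups (-0.49 ± 0.14, adjusted p = 0.0321). Nadk lost its call without old control 1, 2 or 5 or old ANKO 1, 2, 3, 4 or 5. Qprt, which makes the NAD precursor nicotinic acid mononucleotide from the tryptophan product quinolinate, was the member that rose (1.02 ± 0.25, adjusted p = 0.0159). It was at 3.34, 3.23, 3.49, 4.3 and 2.17 in controls against 6.47, 3.35, 10.4, 6.88 and 6.39 in ANKO libraries, with ANKO 3 highest and ANKO 2 inside the control range. Kynu, an earlier enzyme of the same route, was at 13.7, 12.3, 27.9, 11.4 and 14.1 in ANKO libraries against 7.46, 1.22, 14.1, 7.69 and 1.47 in controls (1.32 ± 0.52, adjusted p = 0.124, not called). Tdo2, which opens that route, was at 21.9, 26.3, 6.78, 3.19 and 3.98 in ANKO libraries against 1.89, 1.26, 3.35, 7.63 and 1.56 in controls (1.99 ± 0.61, adjusted p = 0.0503, not called), with ANKO 1 and 2 above the rest. Without old controls 2 and 5 none of the members passed: the values were -0.48, adjusted p = 0.180 for Nmnat1, -0.47, adjusted p = 0.0608 for Nmnat3, -0.26, adjusted p = 0.293 for Nadk and 0.88, adjusted p = 0.0863 for Qprt.

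The lowest values of the NAD lists were those of enzymes that clear nicotinamide. In a list of NAD use and nicotinamide clearance 3 of 25 members were lower and 1 was higher (median -0.09; 2, 0 and -0.00 without old controls 2 and 5). With all libraries 16% were called, against 11.0% of all genes. Nnmt, which methylates nicotinamide (chromosome 9, 48591877 to 48605153), was at 30.6, 88.4, 24.7, 17.1 and 86.3 in controls against 6.04, 11.4, 5.55, 9.26 and 5.79 in ANKO libraries. Every ANKO library was below every control, and controls 2 and 5 were far above the other 3 (log2 fold change -2.70 ± 0.42, edgeR adjusted p = 0.00114; -1.64, adjusted p = 0.00112 without them). Aox1, an oxidase of methylated nicotinamide, was at 89.9, 148, 68.3, 62.6 and 162 in controls against 43.9, 41.2, 23.5, 42.5 and 45.9 in ANKO libraries. Its groups did not overlap either (-1.43 ± 0.27, adjusted p = 0.00358; -0.88, adjusted p = 0.0246 without controls 2 and 5). Cd38 was at 24.5, 17.2, 37.6, 31.1 and 12.9 in controls against 36.1, 32.6, 106, 57.5 and 46.5 in ANKO libraries. ANKO 3 held the highest level, and ANKO 1 and 2 lay within the control range (1.18 ± 0.33, adjusted p = 0.0324). Cd38 lost its call without old control 1, 2 or 5 or old ANKO 3 or 4. Sirt3, the mitochondrial deacetylase, was lower (-0.57 ± 0.16, adjusted p = 0.0365); its exons overlap those of Psmd13 and Ric8a, so its counts are uncertain. Sirt3 lost its call without old control 1, 2 or 5 or old ANKO 1, 4 or 5. Cd38 is made by B cells, and summed B and plasma cell markers were also highest in ANKO 3, at 1745, 2251, 2890.2, 1989 and 1857 CPM in controls against 2316, 2303, 7151, 3222 and 2256 CPM in ANKO libraries. The part of B cells in the Cd38 value was not tested. Without old controls 2 and 5 Cd38 was 0.87, adjusted p = 0.184, and Sirt3 was -0.35, adjusted p = 0.300.

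**Figure D2:**
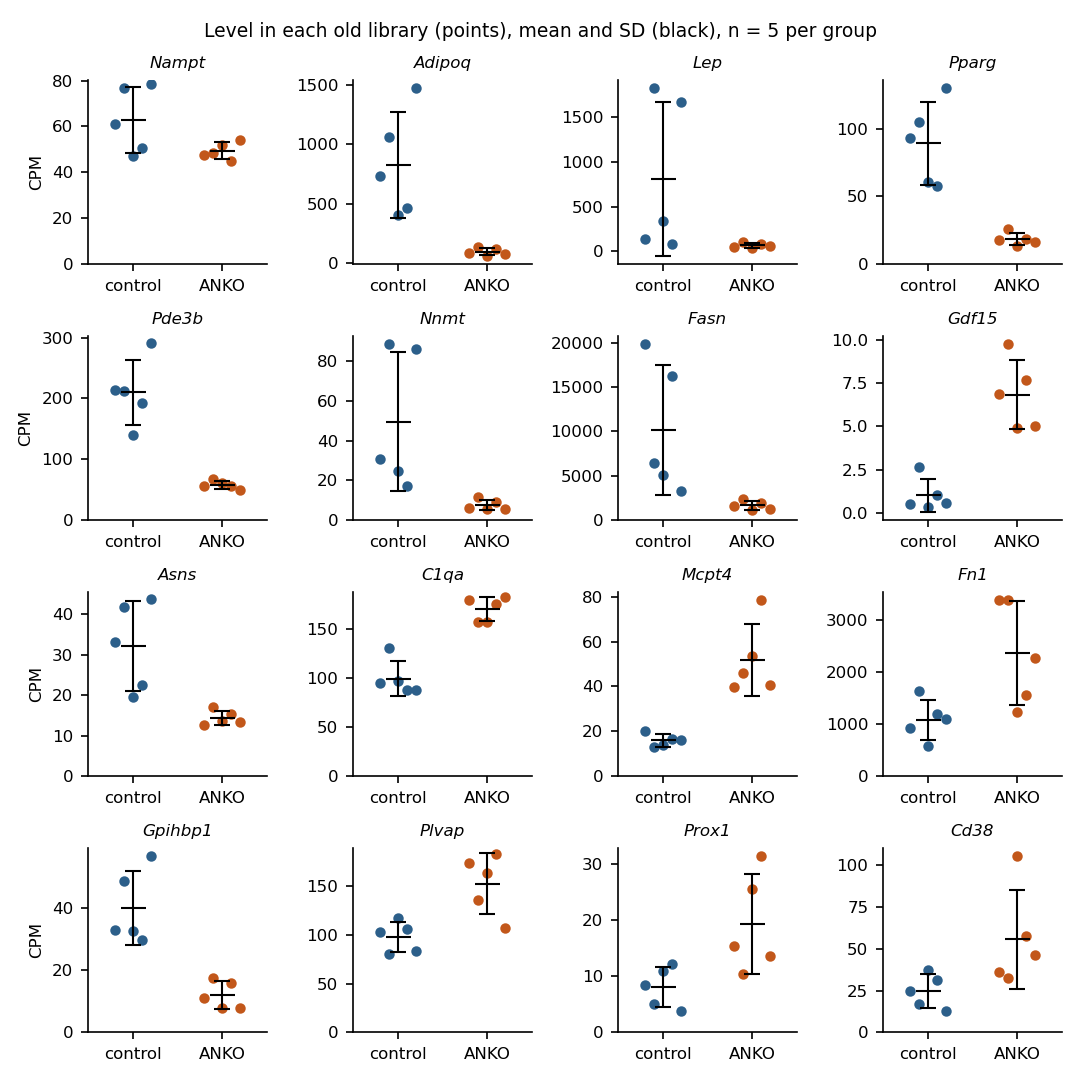
Levels in CPM of 16 genes in each of the 5 old control and 5 old ANKO libraries (points), with the mean and SD in black. Pparg, Pde3b, Nnmt and Asns show 2 groups apart with a narrow ANKO group, Nampt, Lep and Cd38 show overlap, and C1qa and Mcpt4 are higher in each ANKO library than in any control.

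Every adipocyte marker tested was lower in ANKO fat. All 24 of 24 were called, with a median of -2.77 and a range of -5.11 to -1.84, against 8.04% lower among all genes. In 23 of them the groups did not overlap, against 7.96% of all genes in either direction, 5.82% lower and 2.14% higher. Their summed level was 12828 to 38487 CPM in controls against 2089 to 5038 CPM in ANKO libraries, so the tissue kept adipocyte transcripts in each library. Without old controls 2 and 5, 23 were lower and the median was -1.96. Lep, the hormone leptin, was the member with overlapping groups: it was at 143, 1820.3, 339, 82.2 and 1666 in controls against 49.8, 109, 38.7, 86.7 and 55.5 in ANKO libraries. Controls 2 and 5 were far above the other 3, and control 4 lay inside the ANKO range (log2 fold change -3.58 ± 0.75, edgeR adjusted p = 0.00762; -1.45, adjusted p = 0.0821 without that pair). Lep and Cidec were named after their values were seen.

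Among the transcription factors that set the adipocyte state the calls were all lower. Of 22 tested, 10 were called lower and none higher, with a median of -0.59, or -0.31 and 6 lower without old controls 2 and 5. Pparg, the receptor that starts and maintains the adipocyte programme (chromosome 6, 115360951 to 115490399), was at 93, 105, 60.4, 57.5 and 130.1 in controls against 17.7, 25.9, 13.4, 18.3 and 16.5 in ANKO libraries. The lowest control was more than 2-fold above the highest ANKO library (log2 fold change -2.28 ± 0.25, edgeR adjusted p = 9.61e-05). Cebpa, its partner, was at 620.3, 556, 437, 451 and 926 in controls against 189, 217, 130.2, 165 and 132 in ANKO libraries, also with no overlap (-1.84 ± 0.23, adjusted p = 1.95e-04). Mlxipl, the carbohydrate response factor ChREBP, was at 194, 133, 84.5, 159 and 224 in controls against 21.5, 61.6, 17, 28.2 and 27.7 in ANKO libraries; ANKO 2 stood above the other 4 (-2.35 ± 0.34, adjusted p = 7.24e-04). Klf15, a glucocorticoid-induced factor, fell from 46.7 ± 17.9 to 13.6 ± 5.72 CPM (n = 5 each, ± SD; -1.78 ± 0.29, adjusted p = 0.00144). Zfp423, a factor of committed preadipocytes, was at 52.5, 119, 62.8, 41.1 and 162 in controls against 36.9, 37.6, 22.3, 36.7 and 26.9 in ANKO libraries. Controls 2 and 5 were highest, and no control fell in the ANKO range (-1.45 ± 0.31, adjusted p = 0.00808; -0.68, adjusted p = 0.0345 without that pair).

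The promoters of 4 adipocyte genes that fell, picked after their values were seen, are shown because each holds the core of a C/EBP motif, the factor family of Cebpa. The motif searched was TTGCNNAA on either strand (TTNNGCAA on the other), which reads as itself on both strands where the inner letters allow it, so that a match can count on both. Each window is 250 bases before a RefSeq start of the gene (GRCm38.p6), 5′ to 3′ on the gene's strand, with matches in capitals. The Pparg window lies inside the span of the gene given above, before a start within that span. Cidec coats droplets and fuses them, Plin1 is the droplet coat that guards stored fat, and Lep and Pparg are described above.
Cidec (chr6:113434765-113435014, minus strand): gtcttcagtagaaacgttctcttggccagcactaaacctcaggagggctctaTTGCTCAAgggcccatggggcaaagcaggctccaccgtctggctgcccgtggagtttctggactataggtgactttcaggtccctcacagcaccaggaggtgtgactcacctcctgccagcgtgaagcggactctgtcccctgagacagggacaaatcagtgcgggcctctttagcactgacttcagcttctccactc
Lep (chr6:29059971-29060220, plus strand): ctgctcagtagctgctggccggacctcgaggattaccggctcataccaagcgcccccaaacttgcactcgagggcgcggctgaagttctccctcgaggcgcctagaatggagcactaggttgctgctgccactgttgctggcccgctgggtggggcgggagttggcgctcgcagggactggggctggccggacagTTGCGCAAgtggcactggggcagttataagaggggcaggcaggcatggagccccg
Plin1 (chr7:79732777-79733026, minus strand): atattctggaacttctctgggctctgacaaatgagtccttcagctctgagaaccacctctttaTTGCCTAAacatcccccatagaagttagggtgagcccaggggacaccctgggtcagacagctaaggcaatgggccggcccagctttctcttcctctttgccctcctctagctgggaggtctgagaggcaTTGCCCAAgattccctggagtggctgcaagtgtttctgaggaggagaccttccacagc
Pparg (chr6:115421816-115422065, plus strand): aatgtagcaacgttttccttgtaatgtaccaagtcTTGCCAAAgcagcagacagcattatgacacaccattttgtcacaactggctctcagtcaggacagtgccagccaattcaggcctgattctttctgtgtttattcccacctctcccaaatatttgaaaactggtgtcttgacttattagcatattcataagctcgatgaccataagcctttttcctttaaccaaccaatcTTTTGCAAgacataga
Of 24 adipocyte markers 17 had a promoter in the RefSeq table, and these 4 (23.5%) held the motif. Among genes with a promoter in that table, the share was 10.8% of all 27025, 9.50% of 13333 tested and 9.74% of 1252 called lower. It was 16.0% of 156 such genes called lower by at least 4-fold. Of 455 such genes called higher it was 10.8%. Cidec was at 661, 1897, 416, 437 and 1579 in controls against 174, 230.1, 149, 211 and 132 in ANKO libraries, apart in all libraries (log2 fold change -2.48 ± 0.41, edgeR adjusted p = 0.00166; -1.46, adjusted p = 0.00353 without old controls 2 and 5). Plin1 was at 882, 1021, 612, 539.6 and 1479 in controls against 106, 159, 70.2, 144 and 81.9 in ANKO libraries (-3.01 ± 0.30, adjusted p = 6.28e-05). A match describes the letters of the window and is no evidence of binding.

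Among receptors and enzymes that govern fat breakdown, genes that stimulate it and genes that restrain it were called lower. Of 25 genes of lipolysis and its receptors, 17 were lower and none higher (median -1.57; 14 lower and a median of -0.90 without old controls 2 and 5). Among the stimulatory receptors, Adrb3, the beta-3 adrenergic receptor, was at 384, 134, 149, 290.1 and 354 in controls against 23.9, 51.5, 20.2, 34.2 and 20.8 in ANKO libraries (log2 fold change -3.12 ± 0.35, edgeR adjusted p = 1.11e-04). Tshr, the thyrotropin receptor, was at 95.6, 127, 74.1, 62.8 and 194 in controls against 7.53, 14.8, 4.75, 11.9 and 7.78 in ANKO libraries (-3.56 ± 0.36, adjusted p = 6.93e-05). Both were separate between the groups in all libraries. Among the brakes, Hcar1, the lactate receptor that restrains lipolysis, was at 52.2, 72.1, 24.3, 33 and 82.5 in controls against 4.8, 5.57, 3.43, 5.4 and 3.01 in ANKO libraries (-3.57 ± 0.34, adjusted p = 5.43e-05). Pde3b, the phosphodiesterase through which insulin lowers cyclic AMP (chromosome 7, 114415281 to 114539251), was at 214, 212, 139.7, 193 and 290.4 in controls against 56.2, 67.2, 60.7, 56 and 48.9 in ANKO libraries, and its ANKO libraries lay close together (-1.86 ± 0.17, adjusted p = 2.95e-05). Prkar2b, the regulatory subunit of protein kinase A that adipocytes use, fell from 295 ± 161 to 64.9 ± 15.5 CPM (n = 5 each, ± SD; -2.18 ± 0.33, adjusted p = 7.63e-04; -1.44 without old controls 2 and 5).

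In insulin signalling nearly all calls were lower, with a median nearer to 0. Of 23 members 11 were lower and 1 was higher (median -0.42; 6 lower, 0 higher and a median of -0.19 without old controls 2 and 5). Irs1, the receptor's main substrate in adipocytes, was at 388, 272, 221, 291 and 413 in controls against 136, 177, 86.6, 125 and 160.2 in ANKO libraries (log2 fold change -1.21 ± 0.20, edgeR adjusted p = 0.00159), and its groups were apart.

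The members called lower in the list of secreted adipocyte products covered a wide range of fold changes. In that list 12 of 25 were lower and 1, C3, was higher. Those lower include Lipe, a lipase inside the cell that stands in the lipolysis list too. Adipoq, adiponectin, was at 88.2, 136, 62, 119.8 and 74.4 CPM across ANKO libraries against 735, 1065, 406, 460.4 and 1473 CPM across controls, with no overlap (log2 fold change -3.11 ± 0.35, edgeR adjusted p = 1.08e-04; -2.44 without old controls 2 and 5). Nrg4, a growth factor that fat sends to the liver, was at 58.6, 36.2, 18, 30.3 and 31.7 in controls against 6.86, 12.8, 10.04, 13.7 and 7.92 in ANKO libraries (-1.77 ± 0.28, adjusted p = 0.00128); its exons overlap those of Fbxo22. Retn, resistin (-4.02 ± 0.30, adjusted p = 1.25e-05), Rbp4, the retinol carrier (-4.26 ± 0.33, adjusted p = 1.25e-05), and Cfd, adipsin (-5.11 ± 0.51, adjusted p = 6.28e-05), fell most. Lpl, the lipase that adipocytes export to capillaries, was at 2086, 5249.6, 2128, 1317 and 5068 in controls against 783, 1045, 529, 906 and 637 in ANKO libraries (-2.02 ± 0.36, adjusted p = 0.00230; -1.22 without old controls 2 and 5).

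Genes that make and pack triglyceride were lower from fatty acid synthesis to the droplet. Called lower were 13 of 21 genes of fatty acid synthesis (median -1.44), 12 of 20 of triglyceride synthesis and glyceroneogenesis (-1.37), 14 of 20 of the droplet (-1.73) and 7 of 16 of fatty acid uptake (-1.19). None of their members was called higher. Some of these genes are counted in other lists too, such as Plin1 in lipolysis and Lpl among secreted products. Leaving out old controls 2 and 5, the counts lower were 15, 10, 12 and 7 in that order, with medians of -1.33, -1.09, -1.14 and -0.66, and 1 triglyceride synthesis gene was higher. Fasn, fatty acid synthase, was at 19790.0, 6446, 5088, 16212 and 3252 in controls against 1638, 2386, 1127, 1918 and 1233 in ANKO libraries. Controls 1 and 4 were highest here, not 2 and 5, and all controls exceeded all ANKO libraries (log2 fold change -2.61 ± 0.47, edgeR adjusted p = 0.00249). Thrsp, a lipogenic regulator, was at 628, 457, 262, 574 and 293 in controls against 64.1, 104, 45.4, 85.4 and 71.1 in ANKO libraries (-2.58 ± 0.33, adjusted p = 2.66e-04). G6pdx, which supplies NADPH from glucose, fell from 176 ± 69.5 to 64.7 ± 8.38 CPM (n = 5 each, ± SD; -1.44 ± 0.23, adjusted p = 0.00115; -0.96 without old controls 2 and 5). Pck1, which makes the glycerol backbone from pyruvate, was at 907, 532, 279, 509 and 945 in controls against 97.3, 124, 45.5, 107 and 67.6 in ANKO libraries (-2.84 ± 0.37, adjusted p = 2.90e-04). Pcx, the pyruvate carboxylase that feeds it, was at 1733, 1063, 387, 1147 and 729 in controls against 208, 295, 138, 223 and 198 in ANKO libraries (-2.25 ± 0.34, adjusted p = 9.07e-04). For both the groups were apart, with control 3 nearest the ANKO libraries. Mogat1, an acyltransferase, fell from 3.69 ± 0.963 to 0.35 ± 0.219 CPM (-3.37 ± 0.42, adjusted p = 2.29e-04), Gpam, the first acyltransferase, (-1.51 ± 0.22, adjusted p = 7.23e-04) and Dgat1, the last step, (-1.41 ± 0.20, adjusted p = 5.90e-04).

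Genes of the droplet and of fatty acid transport at the cell surface fell too. Plin4, a droplet coat, was at 1421, 2344, 769, 708 and 2997 in controls against 236, 418, 165, 255 and 190.0 in ANKO libraries (log2 fold change -2.70 ± 0.40, edgeR adjusted p = 7.24e-04; -1.90 without old controls 2 and 5). Pnpla3, a droplet hydrolase, was at 366, 449.8, 209, 295 and 323 in controls against 45.7, 94.4, 33.9, 62.9 and 41.1 in ANKO libraries (-2.56 ± 0.31, adjusted p = 1.90e-04), and Fitm2, which helps droplets form, fell (-1.67 ± 0.27, adjusted p = 0.00128). Fabp4, the fatty acid carrier, was at 1921, 4413, 1519, 1332 and 3954 in controls against 377, 544, 277, 500.4 and 320.3 in ANKO libraries (-2.70 ± 0.36, adjusted p = 3.33e-04; -1.95 without old controls 2 and 5). Cd36, a fatty acid transporter of adipocytes and capillaries, was at 905, 2107, 648, 629 and 1978 in controls against 301, 377, 216, 352 and 223 in ANKO libraries; all ANKO libraries were below all controls (-2.09 ± 0.35, adjusted p = 0.00161; -1.28 without old controls 2 and 5).

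Glycogen genes made up 6 of the 8 calls in the list of glycogen and glycolysis. All 8, of 28 tested, were lower, and the median was -0.60; without old controls 2 and 5 6 were lower and the median was -0.23. Gys2, a glycogen synthase, was at 0.815, 1.08, 0.508, 1.1 and 1.07 CPM in ANKO and 20.2, 55.2, 14.4, 12.9 and 16.8 CPM in control libraries (log2 fold change -4.70 ± 0.53, edgeR adjusted p = 1.11e-04; -4.11, adjusted p = 1.06e-04 without the highest, control 2; -4.08 without controls 2 and 5). Gbe1, the branching enzyme, fell from 71.1 ± 21.5 to 27.6 ± 4.68 CPM (n = 5 each, ± SD; -1.36 ± 0.24, adjusted p = 0.00260). Pygl, a glycogen phosphorylase, fell from 154 ± 47.6 to 58.5 ± 12.2 CPM (-1.39 ± 0.27, adjusted p = 0.00416). Skeletal muscle is rich in glycolytic enzymes, and its summed markers were 10819, 457, 340.0, 2259 and 89635 CPM in controls against 1173, 50314, 896, 1282 and 37267 CPM in ANKO libraries. The high libraries were controls 1 and 5 and ANKO 2 and 5, none of the 22 muscle markers was called, and the part of muscle in these values was not tested.

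Mitochondrial pathways for carbon fuels were lower with few exceptions. Breakdown of the branched chain amino acids valine, leucine and isoleucine had 23 of 27 genes called lower (median -1.23; 18 and -0.83 without old controls 2 and 5). Aldh6a1, of valine breakdown, was at 213, 240.1, 139.6, 124 and 384 in controls against 35.4, 52.8, 28.7, 41.7 and 35.5 in ANKO libraries (log2 fold change -2.50 ± 0.27, edgeR adjusted p = 9.61e-05). Hibch, of the same branch, was at 55.4, 77.6, 33.9, 36 and 84.3 in controls against 15, 18.2, 13.9, 18.7 and 15.9 in ANKO libraries (-1.81 ± 0.25, adjusted p = 4.72e-04). Ivd and Mccc1, of leucine breakdown, fell as well (-1.48 ± 0.19, adjusted p = 3.24e-04 and -1.40 ± 0.17, adjusted p = 2.29e-04). The 4 genes were lower in each ANKO library than in any control.

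In the TCA cycle and pyruvate entry 25 of 30 genes were lower, every fitted value was below 0 (-2.25 to -0.49) and the median was -0.94. Without old controls 2 and 5 the count was 14 and the median -0.58. Pdha1, a subunit of the NAD-dependent pyruvate dehydrogenase, was at 323, 229, 132, 229 and 231 in controls against 86.1, 114, 70.7, 84.7 and 96.5 in ANKO libraries (log2 fold change -1.34 ± 0.21, edgeR adjusted p = 0.00111). Dld, the subunit that hands electrons to NAD in several of these complexes, was at 89.4, 131, 55.5, 71.1 and 108 in controls against 33.2, 54.2, 39.3, 43.7 and 43.8 in ANKO libraries (-1.09 ± 0.20, adjusted p = 0.00350; -0.72 without old controls 2 and 5). Aco1, cytosolic aconitase, was at 169, 208, 94.3, 132 and 185 in controls against 61.9, 64, 49.3, 67.2 and 64.7 in ANKO libraries (-1.36 ± 0.19, adjusted p = 4.57e-04). The controls varied, with control 3 lowest, while the ANKO libraries stayed within 49.3 to 67.2 CPM. Idh1, the cytosolic NADP enzyme, fell (-1.53 ± 0.24, adjusted p = 0.00122; -0.96 without old controls 2 and 5). Fatty acid oxidation had 19 of 23 genes lower and 1 higher, with Hadh, which passes electrons to NAD, at 130.3, 236, 107, 103 and 226 in controls against 48, 57.3, 38.1, 50.4 and 52.8 in ANKO libraries (-1.70 ± 0.23, adjusted p = 4.23e-04). Without the same pair of controls 12 were lower and 1 higher. For protein handling in mitochondria 12 of 27 were lower (median -0.37; 4 and -0.18 without old controls 2 and 5), among them the protease subunit Clpp (-0.62 ± 0.11, adjusted p = 0.00231) and prohibitin, Phb (-0.86 ± 0.17, adjusted p = 0.00526; -0.49 without that pair).

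With all libraries the calls among thermogenic genes were mostly lower. Of 26, 6 were lower and 1 higher (median -0.77), or 26.9% called against 11.0% of all genes. Without old controls 2 and 5, 1 was lower and 2 were higher, with a median of -0.40. Their summed level was 312 to 716 CPM in controls against 157 to 305 CPM in ANKO libraries. Tmem26, a surface marker given to beige adipocytes, rose (log2 fold change 1.73 ± 0.38, edgeR adjusted p = 0.00935) and was at 1.72, 1.32, 4.64, 2.61 and 0.696 in controls against 7.53, 9.62, 8.47, 6.42 and 4.26 in ANKO libraries, where control 3 exceeded ANKO 5. Otop1, a proton channel of brown fat, was at 1.97, 34.9, 3.26, 3.59 and 10.2 in controls against 0.48, 0.888, 0.466, 1.23 and 2.08 in ANKO libraries (-3.38 ± 0.74, adjusted p = 0.00894). Control 2 lay far above the rest: without it the value was -2.19, adjusted p = 0.0174, and without controls 2 and 5 it was -1.48, adjusted p = 0.0573.

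Among antioxidant genes, enzymes that remove peroxide and superoxide were called lower and most members were not called. Called lower were 10 of 26 (median -0.43; 4 lower, 1 higher and a median of -0.14 without old controls 2 and 5). Cat, catalase, was at 469.8, 759.6, 306, 295 and 699 in controls against 149, 173, 139, 154 and 154 in ANKO libraries (log2 fold change -1.72 ± 0.27, edgeR adjusted p = 0.00109). Sod1, the cytosolic superoxide dismutase, was at 201, 189, 108, 141 and 218 in controls against 76.2, 77.1, 71.7, 77.1 and 74.9 in ANKO libraries (-1.18 ± 0.17, adjusted p = 5.03e-04). For both, the lowest control stood above the highest ANKO library. Mgst1, a glutathione transferase, fell (-1.47 ± 0.25, adjusted p = 0.00176), and Gpx4, which repairs oxidised lipids, (-0.88 ± 0.18, adjusted p = 0.00528; -0.56 without old controls 2 and 5).

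**Figure D3:**
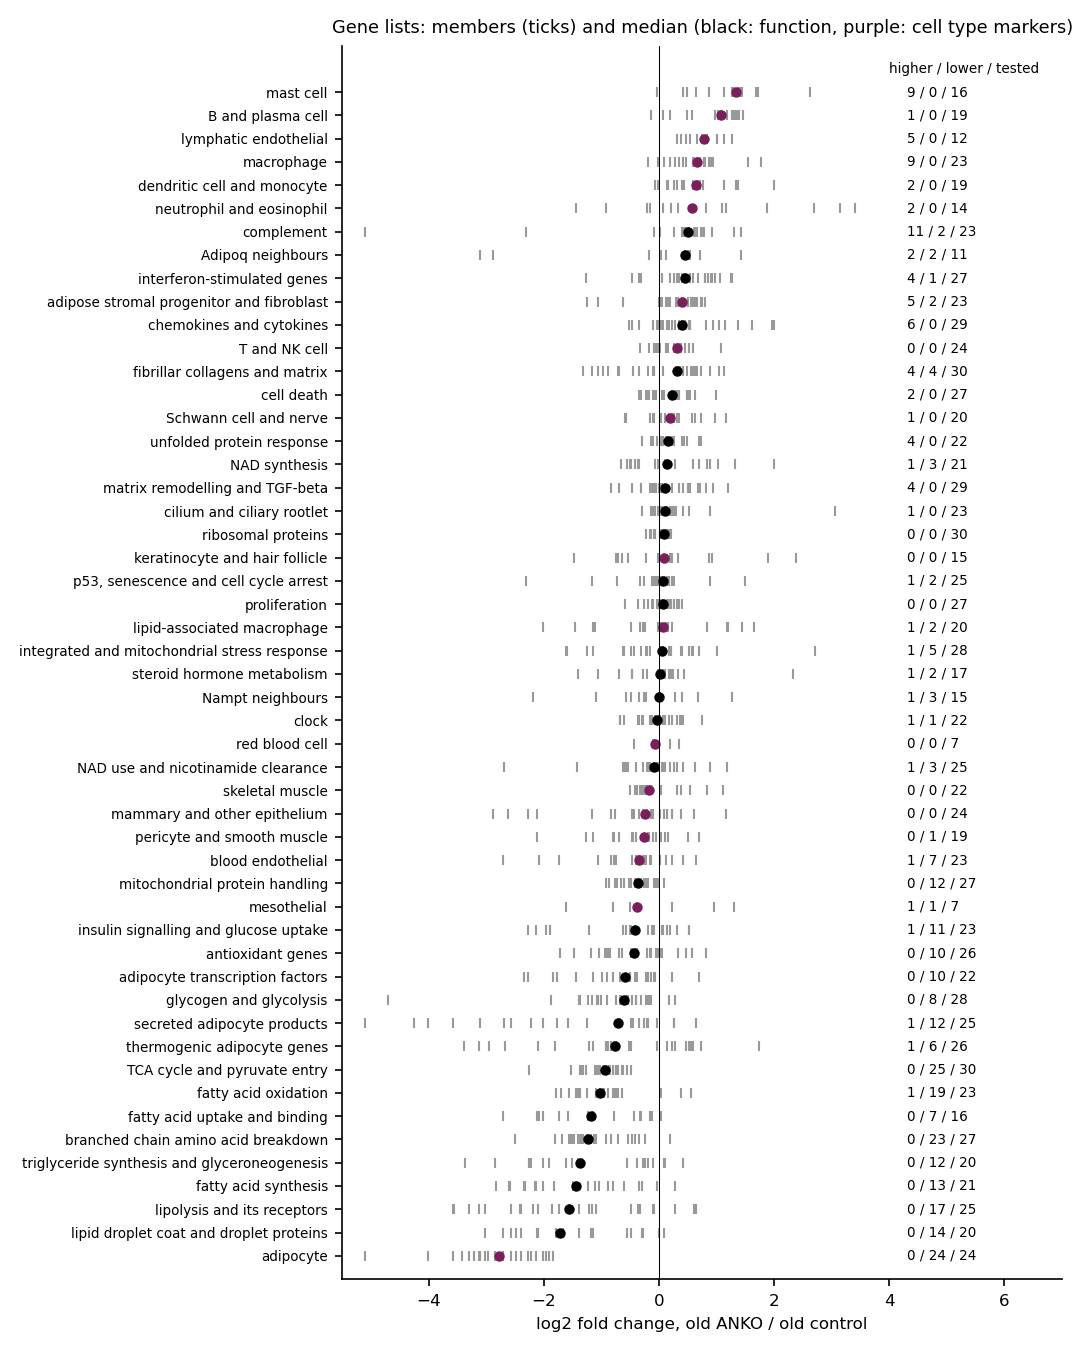
Each row is 1 of the 51 gene lists; ticks are the log2 fold changes of its tested members (x axis), the dot is their median, and the numbers at the right give members called higher, called lower and tested. The adipocyte, lipid droplet, lipolysis and fatty acid synthesis lists sit at the left with 0 genes higher, the mast cell, lymphatic and macrophage markers at the right with 0 lower.

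Stress genes were called in both directions. In the list for integrated and mitochondrial stress, with 28 genes, 1 was higher and 5 were lower (median 0.06). The share called was 21.4%, against 11.0% of all genes. Without old controls 2 and 5, 1 was higher and 2 were lower, with a median of 0.14. Gdf15, a secreted stress factor (chromosome 8, 70629393 to 70632456), was the one that rose, at 6.86, 9.71, 4.92, 7.65 and 5 in ANKO libraries against 0.515, 2.65, 0.335, 1.02 and 0.573 in controls (log2 fold change 2.71 ± 0.55, edgeR adjusted p = 0.00577; 3.50, adjusted p = 9.47e-04 without control 2, the highest control; 3.48 without controls 2 and 5). Enzymes that make serine and asparagine, known targets of the stress factor ATF4, were among those lower. Phgdh, the first enzyme of serine synthesis, was at 80.7, 134, 73.1, 56.9 and 220.4 in controls against 44.3, 41.4, 39.8, 31.1 and 27.8 in ANKO libraries, with no overlap (-1.62 ± 0.31, adjusted p = 0.00380; -0.90, adjusted p = 0.00651 without old controls 2 and 5). Psat1, the next enzyme, was at 31.2, 99.1, 38.5, 26.2 and 99.98 in controls against 22.5, 31.9, 26.9, 23.4 and 19.2 in ANKO libraries (-1.25 ± 0.35, adjusted p = 0.0309; -0.34, adjusted p = 0.383 without old controls 2 and 5). Controls 2 and 5 were far above, controls 1 and 4 lay inside the ANKO range, and control 3 lay above that range. Psat1 lost its call without old control 2 or 5 or old ANKO 1, 3, 4 or 5. Asns, asparagine synthetase, was at 33, 41.8, 19.5, 22.5 and 43.8 in controls against 12.8, 17.1, 13.6, 15.3 and 13.5 in ANKO libraries. All ANKO libraries were below all controls (-1.15 ± 0.23, adjusted p = 0.00563; -0.76, adjusted p = 0.0574 without old controls 2 and 5). Eif4ebp1, a brake on translation, was at 86, 127, 63.6, 55.1 and 156 in controls against 35, 38.6, 28.6, 29.9 and 28.3 in ANKO libraries (-1.61 ± 0.26, adjusted p = 0.00127; -1.06 without that pair).

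In the unfolded protein response 4 of 22 genes were higher and none lower (median 0.16; 1 higher and a median of 0.25 without old controls 2 and 5). With all libraries 18.2% were called, against 11.0% of all genes. Herpud1, of protein disposal from the endoplasmic reticulum, was at 59.1, 62.7, 65.4, 62.9 and 82 in controls against 86, 106, 109.5, 77.7 and 84.9 in ANKO libraries, with control 5 above ANKO 4 (log2 fold change 0.48 ± 0.11, edgeR adjusted p = 0.00991). Sdf2l1, a chaperone component, was at 12, 10.5, 9.57, 12.8 and 10.4 in controls against 12.9, 16.1, 25.6, 20.4 and 16.4 in ANKO libraries (0.73 ± 0.17, adjusted p = 0.0114; 0.71, adjusted p = 0.0583 without old controls 2 and 5). Creld2 and Pdia4 were the others (0.70 ± 0.21, adjusted p = 0.0414 and 0.44 ± 0.13, adjusted p = 0.0370; 0.77, adjusted p = 0.102 and 0.51, adjusted p = 0.0596 without that pair). Creld2 lost its call without old control 1, 3 or 5 or old ANKO 2, 3 or 4, and Pdia4 without old control 1, 3 or 5 or old ANKO 1, 3 or 5.

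Of growth arrest, division, death and clock genes 12.0%, 0%, 7.41% and 9.09% were called in that order, against 11.0% of all genes. Among genes of p53, senescence and cell cycle arrest 1 of 25 was higher and 2 were lower (1 and 1 without old controls 2 and 5). Cdkn2c, an inhibitor of CDK4 and CDK6 that rises as fat cells mature (chromosome 4, 109660876 to 109667189), was at 87.3, 129, 76.3, 58.7 and 137 in controls against 19.7, 21.9, 17.5, 20.2 and 19.6 in ANKO libraries and was the lowest of them (log2 fold change -2.30 ± 0.21, edgeR adjusted p = 2.70e-05). Its 5 ANKO libraries lay within 17.5 to 21.9 CPM, and the lowest control was at 58.7 CPM. Phlda3, a p53 target, fell (-1.17 ± 0.24, adjusted p = 0.00563; -0.75, adjusted p = 0.0503 without old controls 2 and 5). Igfbp3, a binding protein of insulin-like growth factors, was at 207, 122, 76, 152 and 81 in ANKO libraries against 32.2, 29.4, 66, 51.4 and 47.9 in controls (1.49 ± 0.28, adjusted p = 0.00383), with no overlap. None of 27 proliferation genes and none of 30 ribosomal protein genes was called. Of 27 cell death genes 2 were higher (1 without old controls 2 and 5): Mcl1, which protects from death (0.53 ± 0.12, adjusted p = 0.0107), and Apaf1, the caspase-9 scaffold (0.49 ± 0.12, adjusted p = 0.0143; 0.39, adjusted p = 0.0846 without old controls 2 and 5). In the clock list Per2, a repressor of the cycle, was at 21.3, 27.2, 27.1, 22.3 and 27.5 in controls against 48.7, 49.7, 41.6, 35.3 and 35.1 in ANKO libraries (0.75 ± 0.16, adjusted p = 0.00663), and 1 of 22 was lower; without old controls 2 and 5 2 were higher and 1 lower.

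Markers of immune cells were higher for some cell types and not called for others. Of the mast cell markers 9 of 16 tested were higher and none lower (median 1.33; 9 and 1.20 without old controls 2 and 5), against 2.99% higher among all genes. Mcpt4, a chymase of connective tissue mast cells (chromosome 14, 56059629 to 56062313), was at 20.3, 13.1, 13.8, 16.6 and 16.3 in controls against 39.8, 46.1, 53.5, 78.7 and 40.9 in ANKO libraries (log2 fold change 1.69 ± 0.18, edgeR adjusted p = 9.43e-05). Tpsb2, a tryptase, was at 17, 16.5, 15.2, 11.7 and 17.6 in controls against 40.6, 39.7, 40.9, 52.9 and 30.1 in ANKO libraries (1.39 ± 0.16, adjusted p = 1.08e-04). Cma1, another chymase, was at 11.8, 12.1, 7.66, 8.76 and 7.61 in controls against 23.2, 23.1, 20.7, 35.7 and 24.5 in ANKO libraries (1.40 ± 0.18, adjusted p = 2.85e-04). Cpa3, the mast cell carboxypeptidase, was at 10.2, 9.41, 4.98, 7.22 and 7.66 in controls against 20.7, 22, 17.8, 28.7 and 16.9 in ANKO libraries (1.42 ± 0.19, adjusted p = 3.33e-04). In these 4 genes each ANKO library exceeded each control, and ANKO 4 was highest in all of them. Tpsg1, a tryptase whose exons overlap Cacna1h, rose (2.62 ± 0.45, adjusted p = 0.00190). Mast cell chymases and tryptases are near-identical families, and the labels do not say how reads that match several genes were counted. Summed mast cell markers were 248 to 343 CPM in controls against 313 to 456 CPM in ANKO libraries.

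Macrophage markers rose in part. Called higher were 9 of 23, with none lower (median 0.66; 14 and 0.87 without old controls 2 and 5). Their sum was 1297 to 1925 CPM in controls against 2006 to 2655 CPM in ANKO libraries, with no overlap. C1qa, a chain of the first complement component that tissue macrophages make, was at 94.5, 131, 96.5, 88.1 and 87.6 in controls against 179, 157, 157, 175 and 182 in ANKO libraries (log2 fold change 0.77 ± 0.12, edgeR adjusted p = 7.50e-04). Csf1r, the receptor for macrophage growth factor, was at 138, 212, 126, 134 and 171 in controls against 249, 222, 325, 304 and 243 in ANKO libraries (0.78 ± 0.14, adjusted p = 0.00315). Lyz2, lysozyme, was at 238, 310.3, 274, 272 and 282 in controls against 436, 365, 709.7, 503 and 487 in ANKO libraries (0.86 ± 0.16, adjusted p = 0.00320). Of the lipid-associated macrophage genes 1 of 20 was higher and 2 lower, or 6 and 2 without old controls 2 and 5. With all libraries 15% of that list were called, against 11.0% of all genes. The 2 lower were Lpl and Lgals1 (-1.47 ± 0.33, adjusted p = 0.0114; -0.56 without that pair), which adipocytes and stroma also express. Lgals3, galectin-3, rose (0.83 ± 0.22, adjusted p = 0.0235). Lgals3 lost its call without old control 1 or 5 or old ANKO 1. Gpnmb, a lysosomal protein of lipid-loaded macrophages, was at 14.2, 84.4, 33.4, 12.5 and 26.2 in controls against 116, 102, 56.3, 76.1 and 113 in ANKO libraries (1.44 ± 0.46, adjusted p = 0.0581), and passed without old controls 2 and 5 (2.22, adjusted p = 0.00701). None of 24 T and NK cell markers was called with all libraries, and 4 were lower without old controls 2 and 5. Their median turned from 0.32 to -0.29 without that pair. Their sum was 697, 189, 784, 731 and 141 CPM in controls against 583, 515, 595, 592 and 525 CPM in ANKO libraries. Cd4, of helper T cells, had the highest fold change of that list. It was at 35.2, 3.7, 51.7, 33.1 and 7.7 in controls against 31.2, 29.1, 80.7, 68.3 and 67.9 in ANKO libraries, and controls 2 and 5 were lowest (1.08 ± 0.54, adjusted p = 0.234). Of 19 B and plasma cell markers Mzb1, of antibody-making cells, rose (1.38 ± 0.32, adjusted p = 0.0112; 1.09, adjusted p = 0.0773 without old controls 2 and 5), with ANKO 3 highest at 42.9 CPM. Mzb1 was the sole call of that list (5.26%, against 11.0% of all genes). Dendritic cell and monocyte markers gave 2 of 19 higher, Fn1 and Siglech (1 without old controls 2 and 5), and neutrophil and eosinophil markers 2 of 14, Ngp and Csf3r (0 without that pair). The shares called were 10.5% and 14.3%, against 11.0% of all genes. Fn1, fibronectin, stands in the list of fibrillar collagens and matrix too. Siglech, of plasmacytoid cells, changed by 1.37 ± 0.40, adjusted p = 0.0386 (0.89, adjusted p = 0.0993 without old controls 2 and 5), and was lost without old control 2, 4 or 5 or old ANKO 2, 3 or 4. The summed neutrophil and eosinophil markers were 192 ± 53.2 CPM in controls against 408 ± 70.5 CPM in ANKO libraries (± SD, n = 5 each), mostly from Ltf, lactoferrin, which epithelium also makes (1.16 ± 0.53, adjusted p = 0.182, not called). Without Ltf, left out after seeing the data, the sum was 48.7 ± 11.9 against 86.8 ± 34.0 CPM, with overlapping groups. Ngp, a neutrophil granule gene, was at 0.0858, 0.136, 0.67, 0.102 and 0.164 in controls against 3.4, 2.17, 5.08, 1.15 and 0.463 in ANKO libraries, with ANKO 5 below control 3 (3.40 ± 0.74, adjusted p = 0.00842; 4.26, adjusted p = 0.00221 without control 3; 3.10, adjusted p = 0.0697 without controls 2 and 5). All controls were under 1 CPM for Ngp, so its fold change rests on values near the floor. Csf3r, the receptor for granulocyte growth factor, changed by 1.10 ± 0.30, adjusted p = 0.0305 (1.18, adjusted p = 0.0672 without old controls 2 and 5), and was lost without old control 1 or 5 or old ANKO 3 or 4.

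**Figure D4:**
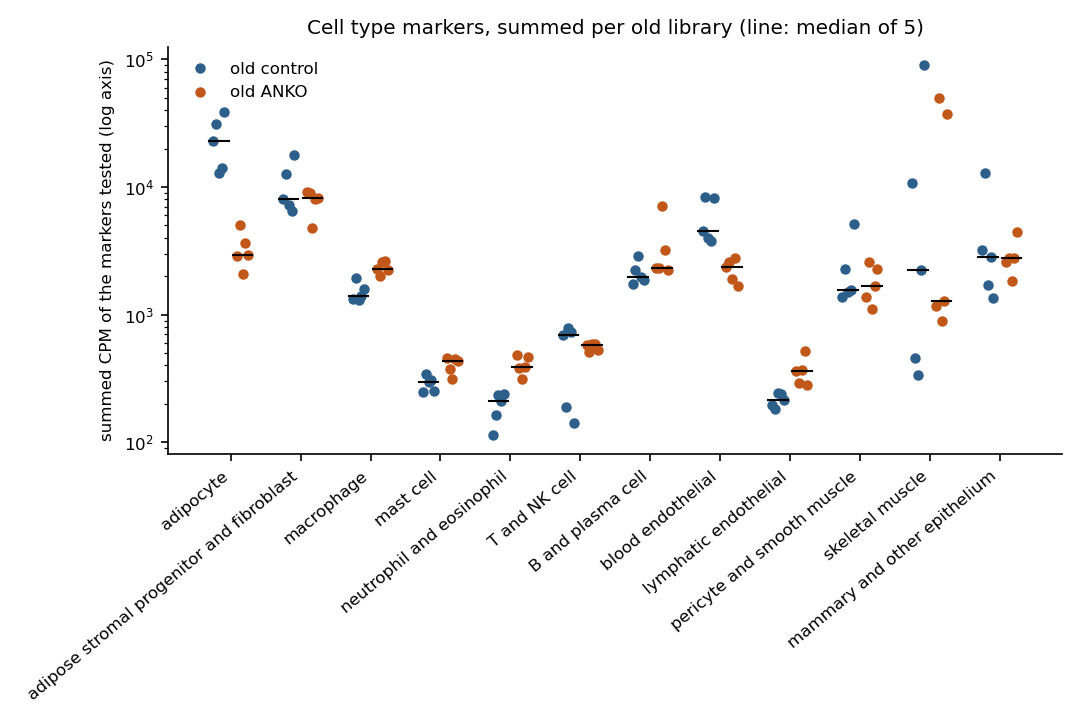
Summed CPM of the tested markers of 12 cell types (y axis, log scale) in each old library, controls in blue and ANKO in orange, with the median of 5 as a line. Adipocyte and blood endothelial sums are lower in all ANKO libraries and macrophage, neutrophil and lymphatic sums higher; Fabp4 and Cd36 hold most of the endothelial sum and Ltf most of the neutrophil sum, while skeletal muscle sums range from 340.0 to 89635 CPM in controls and from 896 to 50314 CPM in ANKO fat.

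Some complement genes and a few chemokine and cytokine genes were higher. Of 23 complement genes 11 were higher and 2 lower (median 0.51; 12, 2 and 0.80 without old controls 2 and 5). C7, of the membrane attack complex, was at 3.17, 5.2, 5.7, 5.17 and 8.92 in controls against 16.3, 15.2, 12.8, 15 and 10.3 in ANKO libraries (log2 fold change 1.30 ± 0.25, edgeR adjusted p = 0.00363). The 2 that fell were Cfd and Cd59a, which shields cells from that complex and was at 27.9, 69.1, 27.3, 22.1 and 84.1 in controls against 7.62, 10.3, 7.42, 11 and 10.01 in ANKO libraries (-2.31 ± 0.34, adjusted p = 7.59e-04; -1.45 without old controls 2 and 5). The groups were apart in these genes. C3, the central component, which stands in the list of secreted adipocyte products too, was at 1908, 1194, 1486, 1584 and 1436 in controls against 3424, 1950.4, 1929, 2012 and 2544 in ANKO libraries (0.64 ± 0.17, adjusted p = 0.0281; 0.54, adjusted p = 0.116 without old controls 2 and 5). C3 lost its call without old control 2 or old ANKO 1 or 5. Among chemokines and cytokines 6 of 29 were higher and none lower, or 3 without old controls 2 and 5. With all libraries 20.7% were called, against 11.0% of all genes. Ccl8, a monocyte attractant, was at 16.4, 18.9, 10.1, 10.6 and 9.13 in controls against 29.3, 21, 46.9, 41.2 and 30.7 in ANKO libraries (1.38 ± 0.24, adjusted p = 0.00202). Csf1, the macrophage growth factor, was at 76.3, 79.7, 84.2, 71.4 and 102 in controls against 117, 103, 104, 116 and 119 in ANKO libraries (0.43 ± 0.10, adjusted p = 0.0133). Il10, an anti-inflammatory cytokine, was at 0.429, 0.17, 0.383, 0.359 and 0.409 in controls against 0.575, 0.986, 1.48, 1.19 and 2.59 in ANKO libraries (1.96 ± 0.45, adjusted p = 0.0119; 1.82, adjusted p = 0.0671 without old controls 2 and 5). The Il10 controls were all under 1 CPM, near the floor. In the 3 genes all ANKO libraries exceeded all controls. Interferon-stimulated genes gave 4 of 27 higher and 1 lower, and 0 higher without old controls 2 and 5. Their share called with all libraries was 18.5%, against 11.0% of all genes. Oasl1, an antiviral gene, rose (1.25 ± 0.34, adjusted p = 0.0277; 0.97, adjusted p = 0.127 without old controls 2 and 5), while Ifi27, a mitochondrial interferon-induced protein, fell from 153 ± 47.2 to 63.6 ± 3.79 CPM (n = 5 each, ± SD; -1.27 ± 0.19, adjusted p = 6.96e-04). Oasl1 lost its call without old control 2 or 5 or old ANKO 3 or 5.

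Some blood vessel markers were called, most of them lower, and some lymphatic markers were higher. Blood endothelial markers had 7 of 23 lower and 1 higher (median -0.34; 4 and 0 without old controls 2 and 5), while lymphatic markers had 5 of 12 higher and none lower (median 0.78; 4 higher without that pair). The shares called were 34.8% and 41.7%, against 11.0% of all genes. Gpihbp1, which holds lipoprotein lipase on capillaries, was at 32.8, 48.5, 32.5, 29.7 and 56.5 in controls against 11.1, 17.5, 7.84, 15.8 and 7.69 in ANKO libraries (log2 fold change -1.74 ± 0.27, edgeR adjusted p = 9.20e-04). Cdh5, the junction protein of endothelium, was at 139, 199, 175, 142 and 234 in controls against 105, 111, 98.3, 129.6 and 74.9 in ANKO libraries (-0.78 ± 0.16, adjusted p = 0.00622; -0.53, adjusted p = 0.0596 without old controls 2 and 5). Plvap, of fenestrated and venous endothelium, went the other way, at 103, 79.7, 117, 106 and 83.2 in controls against 173, 136, 162, 183 and 107 in ANKO libraries, where ANKO 5 lay within the control range (0.64 ± 0.14, adjusted p = 0.00884; 0.52, adjusted p = 0.0557 without old controls 2 and 5). Fgl2, a fibrinogen-like protein, was at 33, 26.7, 40.4, 32 and 37.4 in controls against 70.6, 61.2, 45.1, 66 and 56.7 in ANKO libraries (0.82 ± 0.12, adjusted p = 8.04e-04). Pdpn, podoplanin, which lymphatic endothelium and some stromal cells carry, was at 16.6, 16.6, 12.2, 17.9 and 14.7 in controls against 36.3, 27.4, 22.9, 24.3 and 28.2 in ANKO libraries (0.84 ± 0.16, adjusted p = 0.00358). Sema3d, a guidance factor, was at 9.26, 4.82, 4.83, 9.22 and 9.91 in controls against 18.4, 12.8, 16.7, 23.8 and 12 in ANKO libraries (1.14 ± 0.25, adjusted p = 0.00826). All ANKO libraries exceeded all controls in these 3 genes. Prox1, the factor that fixes lymphatic identity, was at 8.4, 5.06, 10.9, 12.2 and 3.85 in controls against 15.5, 10.4, 25.6, 31.4 and 13.6 in ANKO libraries; ANKO 2 fell among the controls (1.26 ± 0.34, adjusted p = 0.0284; 0.91, adjusted p = 0.140 without old controls 2 and 5). Prox1 lost its call without old control 2 or 5 or old ANKO 3 or 4. Aqp1, a water channel of capillaries, fell (-0.84 ± 0.15, adjusted p = 0.00260). Of the blood endothelial markers called lower, Fabp4, Gpihbp1 and Cd36 stand in the fatty acid uptake list too. Summed lymphatic markers were 184 to 244 CPM in controls against 279 to 521 CPM in ANKO libraries. Lyve1 of the lymphatic list stands in the macrophage list too, and the part of macrophages in the lymphatic values was not tested. Summed blood endothelial markers were 5785 ± 2335 CPM in controls against 2258 ± 463 CPM in ANKO libraries (± SD, n = 5 each). Fabp4 and Cd36 held most of that sum: without them, a step chosen after seeing the data, it was 1903 ± 253 against 1560.0 ± 304 CPM, with overlapping groups.

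Stroma and matrix genes were called in both directions. Among stromal progenitor and fibroblast markers 5 of 23 were higher and 2 lower (median 0.41; 8 and 0 without old controls 2 and 5). Ly6a, the progenitor antigen Sca-1, was at 99, 64.2, 63.3, 74.4 and 64.8 in controls against 128, 106, 133, 127 and 114 in ANKO libraries (log2 fold change 0.73 ± 0.15, edgeR adjusted p = 0.00647), apart in all libraries. Cd34, of progenitors and endothelium, was at 116, 105, 73.5, 108 and 109.5 in controls against 219, 223, 102, 181 and 164 in ANKO libraries, with ANKO 3 below controls 1, 2, 4 and 5 (0.80 ± 0.19, adjusted p = 0.0133). Gsn, gelsolin, was at 4779, 6416, 4396, 2834 and 12362 in controls against 3353, 3395, 1407, 2659.7 and 2129 in ANKO libraries, highest in control 5 (-1.25 ± 0.34, adjusted p = 0.0261; -0.60, adjusted p = 0.212 without old controls 2 and 5). Gsn lost its call without old control 2 or 5 or old ANKO 3, 4 or 5. In fibrillar collagens and matrix 4 of 30 were higher and 4 lower (median 0.31), and without old controls 2 and 5 there were 11 higher and 0 lower (median 0.88). Those higher were interstitial: Fn1, fibronectin, was at 922, 1638, 583, 1207 and 1096 in controls against 3398, 3386, 1229.9, 1569 and 2284 in ANKO libraries, with ANKO 3 and 4 below control 2 (1.12 ± 0.30, adjusted p = 0.0276). Fn1 lost its call without old control 1 or 5 or old ANKO 1 or 2. Tnxb, tenascin-X, was at 607, 1032, 427, 557 and 819 in controls against 1839.9, 1266, 836, 1277 and 1136 in ANKO libraries (0.88 ± 0.23, adjusted p = 0.0238; 1.29, adjusted p = 0.00272 without both controls). Col14a1, a collagen on fibril surfaces, was at 147, 129.6, 60.9, 128 and 122 in controls against 328, 217, 135, 272 and 257 in ANKO libraries, with ANKO 3 below control 1 (1.04 ± 0.24, adjusted p = 0.0128). Tnxb lost its call without old control 1 or old ANKO 1. Those lower were of basement membrane, which each adipocyte and capillary carries. Lama4, a laminin chain, was at 279, 355, 206, 214 and 444 in controls against 167, 184, 122, 185 and 154 in ANKO libraries (-0.88 ± 0.20, adjusted p = 0.0119; -0.49, adjusted p = 0.0951 without old controls 2 and 5). Col4a2 was at 592, 2407, 689.5, 639 and 1839.9 in controls against 521, 575, 393, 522 and 449 in ANKO libraries, with controls 2 and 5 far above the others (-1.33 ± 0.34, adjusted p = 0.0225; -0.35, adjusted p = 0.146 without both controls); its exons overlap those of Col4a1. Col4a2 lost its call without old control 2 or 5 or old ANKO 3 or 5. Matrix remodelling and TGF-beta genes gave 4 of 29 higher and none lower (6 higher without old controls 2 and 5), among them Tgfbr2, a TGF-beta receptor (0.53 ± 0.10, adjusted p = 0.00446), and Timp2, a protease inhibitor (0.67 ± 0.16, adjusted p = 0.0159). The share called in that list was 13.8%, against 11.0% of all genes. Mcam, an adhesion molecule of pericytes, fell from 194 ± 94.1 to 44.5 ± 12.5 CPM (n = 5 each, ± SD; -2.12 ± 0.28, adjusted p = 3.55e-04) and was the sole call among 19 pericyte and smooth muscle markers. With old controls 2 and 5 left out, that list had 2 higher and 1 lower, and its median turned from -0.26 to 0.24.

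The largest rises among genes with separate groups and a mean of at least 1 CPM were of mixed kinds. Crocc2, a paralogue of the ciliary rootlet gene, was at 15.4, 17, 6.19, 7.99 and 6.95 CPM in ANKO and 1.93, 0.747, 1.82, 0.769 and 1.15 CPM in control libraries (log2 fold change 3.06 ± 0.49, edgeR adjusted p = 0.00128); no other of 23 ciliary genes was called. Ache, acetylcholinesterase, was at 13.3, 19, 21.4, 92.3 and 25.5 CPM in ANKO and 4.93, 2.48, 5.84, 3.79 and 8.68 CPM in control libraries (2.74 ± 0.51, adjusted p = 0.00337; 1.96, adjusted p = 0.00288 without ANKO 4). Lsamp, a neural adhesion molecule, had ANKO 2 far above the others (2.38 ± 0.51, adjusted p = 0.00764; 1.76, adjusted p = 0.0158 without it; 3.09 without old controls 2 and 5). Sfrp4, a secreted inhibitor of Wnt signals, was at 28.3, 9.2, 6.22, 11.8 and 10.4 in controls against 57.6, 54.6, 34.9, 45 and 41.1 in ANKO libraries (1.82 ± 0.33, adjusted p = 0.00277). Cyp11a1, which starts steroid synthesis from cholesterol, was at 1.93, 0.408, 1.15, 0.973 and 0.942 in controls against 3.36, 5.37, 2.84, 3.82 and 11.7 in ANKO libraries (2.33 ± 0.48, adjusted p = 0.00622). Amph, amphiphysin, was at 1.07, 0.475, 0.814, 1.13 and 0.246 in controls against 3.12, 4.49, 2.75, 2.85 and 1.76 in ANKO libraries (2.01 ± 0.43, adjusted p = 0.00756). Anks1b, a synaptic scaffold, was at 1.2, 0.985, 0.909, 0.922 and 1.06 in controls against 6.19, 7.4, 1.44, 1.7 and 3.94 in ANKO libraries (2.01 ± 0.46, adjusted p = 0.0117; 2.04, adjusted p = 0.0590 without old controls 2 and 5). Sntg1, a syntrophin, was at 4.54, 1.56, 4.5, 1.54 and 1.72 in controls against 16.6, 8.88, 7.63, 6.84 and 8.99 in ANKO libraries (1.82 ± 0.41, adjusted p = 0.0101; 1.49, adjusted p = 0.0680 without that pair). Ces2e, a carboxylesterase, was near 1 CPM and lost its call without old control 1, 4 or 5 or old ANKO 1, 3 or 4 (2.08 ± 0.64, adjusted p = 0.0492; 1.59, adjusted p = 0.0893 without old controls 2 and 5). Of the other rises by that rule, Gdf15 and Tpsg1 are given above, and Mrgprx2, a Mas-related receptor gene outside the lists, rose (2.01 ± 0.32, adjusted p = 0.00115).

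At the other end stood Cfd, Gys2, Rbp4, Retn, Hcar1 and Tshr, given above, and 6 genes outside the main fat pathways. Amy1, an amylase that cuts starch and glycogen, was at 113, 77.3, 60.7, 71.2 and 197 in controls against 6.38, 15.5, 5.76, 8.03 and 9.26 in ANKO libraries (log2 fold change -3.53 ± 0.35, edgeR adjusted p = 6.85e-05); its exons overlap those of Rnpc3, and the amylase genes are near copies. Acsm5, a mitochondrial medium-chain acyl-CoA synthetase, was at 11.7, 3.26, 4.36, 7.99 and 9.83 in controls against 0.623, 0.838, 0.169, 0.255 and 0.463 in ANKO libraries (-3.98 ± 0.48, adjusted p = 1.76e-04). Akr1cl, an aldo-keto reductase, was at 27.8, 3.57, 28.3, 12.8 and 64.6 in controls against 0.959, 2.17, 3.35, 2.55 and 1.53 in ANKO libraries (-3.69 ± 0.66, adjusted p = 0.00266; -3.07, adjusted p = 0.00592 without control 5). Trim67, a neuronal ubiquitin ligase, was at 17.2, 118, 19.96, 8.76 and 68.9 in controls against 3.93, 4.04, 1.36, 5.35 and 1.99 in ANKO libraries (-3.80 ± 0.64, adjusted p = 0.00198; -3.10, adjusted p = 0.00334 without control 2, and -2.18 without controls 2 and 5). Tmem45b and Prr32 were highest in control 5. Without that library Tmem45b moved from -4.48 ± 0.56, adjusted p = 2.66e-04 to -3.81, adjusted p = 1.60e-04, and Prr32 from -4.24 ± 0.62, adjusted p = 7.24e-04 to -3.55, adjusted p = 9.29e-04. Without controls 2 and 5 they were -3.53 and -3.03.

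The effect of the knockout in old mice was set against its effect in young mice by a test of the difference, in which the 2 comparisons share no library. The test called 1 gene (0.00472% of those tested), and 2037 had an unadjusted p under 0.05. DESeq2 called 274. Gadd45a, which is induced by growth arrest and DNA damage (chromosome 6, 67035096 to 67037457), was at 15.8, 16.7, 12.1, 10.5 and 19.7 in controls against 6.38, 8.88, 7.25, 5.65 and 7.69 in ANKO libraries in old mice (log2 fold change -1.06 ± 0.18, edgeR adjusted p = 0.00170). In young mice it was at 7.77, 6.46 and 5.85 in controls against 12.5, 17 and 14.8 in ANKO libraries (1.14 ± 0.23, adjusted p = 0.0512). Old ANKO libraries were thus all below, and young ANKO libraries all above, their controls (difference -2.20 ± 0.29, adjusted p = 0.0400). Its exons overlap those of E230016M11Rik. The call was lost with the replicate block (adjusted p = 0.0906), with the stricter filter (adjusted p = 0.0547) and without old controls 2 and 5 (-1.97, adjusted p = 0.0558). Leaving out each of the 16 libraries in turn gave -2.33 to -2.08, and the call was lost in 11 of these fits, without old control 1 or 2, old ANKO 1, 3, 4 or 5, any of the young controls, or young ANKO 2 or 3 (adjusted p 0.0137 to 0.198). No member of the 51 lists passed this test. Medians in old and young mice were -2.77 and -0.82 for adipocyte markers, -1.44 and 0.22 for fatty acid synthesis, -0.94 and -0.05 for the TCA cycle and 1.33 and 0.96 for mast cell markers, against 0.01 over all genes at both ages.

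The genes next nearest to a difference between ages were below it by the adjusted p. With a lower value in old than in young mice, Gsta3, a glutathione transferase, was at 31.9, 27.8, 23.5, 20.8 and 59.2 in controls against 3.79, 8.19, 5.72, 5.65 and 4.12 in ANKO libraries in old mice (-2.57 ± 0.32, adjusted p = 2.37e-04) and 0.58 in young (difference -3.15 ± 0.50, adjusted p = 0.0577). Acot2, a mitochondrial thioesterase, fell in old mice (-0.81 ± 0.12, adjusted p = 6.00e-04; difference -1.24 ± 0.19, adjusted p = 0.0577). Ephx1, an epoxide hydrolase, and Impdh1, of guanine nucleotide synthesis, passed in young mice (1.52 ± 0.15, adjusted p = 2.87e-04 and 1.00 ± 0.14, adjusted p = 0.00669) and not in old (0.35 ± 0.11, adjusted p = 0.0602 and -0.20 ± 0.11, adjusted p = 0.269), with differences of -1.17 ± 0.19, adjusted p = 0.0577 and -1.20 ± 0.18, adjusted p = 0.0577. Ephx1 passed in old mice without old controls 2 and 5 (0.47, adjusted p = 0.0463). With a higher value in old mice, C3 differed by 1.48 ± 0.29, adjusted p = 0.0768, Csrp2, a LIM domain protein of smooth muscle, by 1.04 ± 0.24, adjusted p = 0.156 and Clec1b, a platelet and myeloid lectin receptor, by 2.42 ± 0.60, adjusted p = 0.181. Nr5a2, a nuclear receptor, differed by 1.25 ± 0.31, adjusted p = 0.181, Tcf24 by 1.69 ± 0.41, adjusted p = 0.181 and Adam33, a membrane protease of mesenchymal cells, by 0.68 ± 0.17, adjusted p = 0.181. In old mice Csrp2 was at 13.5, 9.68, 11.1, 10.9 and 10.2 in controls against 27.2, 25.4, 18.1, 31.7 and 23.7 in ANKO libraries (1.19 ± 0.15, adjusted p = 2.58e-04). Adam33 was at 29.9, 24.9, 24.8, 25.5 and 22.2 in controls against 56.6, 51.6, 51.2, 57.6 and 49.7 in ANKO libraries (1.07 ± 0.10, adjusted p = 5.40e-05). Both were separate in all libraries.

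**Figure D5:**
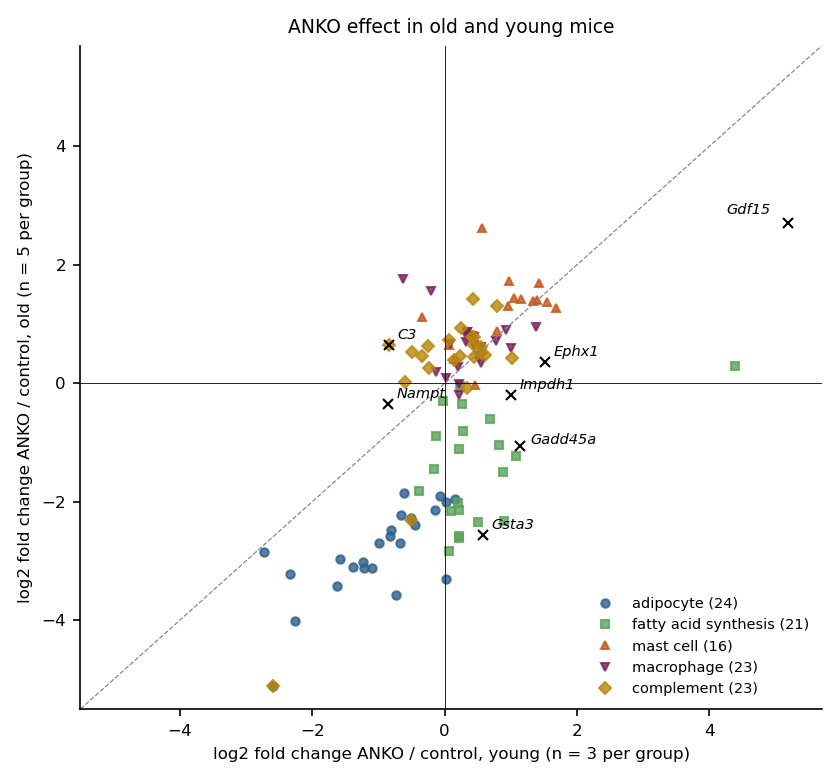
Log2 fold change of ANKO over control in young mice (x axis, 3 libraries a group) and old mice (y axis, 5 a group) for members of 5 lists and 7 named genes (crosses); the dashed line marks equal values. Fatty acid synthesis genes lie below the line, with a median of -1.44 in old and 0.22 in young mice, Gadd45a lies at -1.06 in old and 1.14 in young mice, and apart from Gadd45a no gene of this plot passed the test of the difference.

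Of the genes at the Adipoq and Nampt loci 36.4% and 26.7% were called, against 11.0% of all genes; the difference in share was not tested. Among 11 tested genes at the locus of Adipoq, whose sequences drive the Cre, Adipoq itself and Kng2 were lower, and Eif4a2, a translation helicase (log2 fold change 0.51 ± 0.09, edgeR adjusted p = 0.00251), and Masp1, a complement protease (1.42 ± 0.35, adjusted p = 0.0177; 1.33, adjusted p = 0.0951 without old controls 2 and 5), were higher. Eif4a2 shares exons with Rfc4 and several small RNA genes. Among 15 genes at the Nampt locus, Nampt included, Prkar2b, Dld and Bcap29 were lower and Nrcam was higher, and the first 2 are adipocyte and TCA cycle genes given above. With old controls 2 and 5 left out, 1 gene was higher and 1 lower at the first locus, and 0 and 2 at the second. Zfp949, a zinc finger gene named after its values were seen (chromosome 9, 88548020 to 88571061), was at 16.3, 18.2, 19.96, 20.6 and 20.8 in controls against 54.4, 40.7, 42.6, 44.3 and 45.5 in ANKO libraries (1.25 ± 0.10, adjusted p = 1.25e-05), and the young effect was 1.44.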

How the data were processed

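The authors deposited 1 table of raw read counts per gene symbol. STAR (2.0.4b), Subread, featureCounts (1.45) and GRCm38 are named per the submitters' processing notes, and the sources used here do not give the annotation release, strand setting or filters. Of 40757 lines, 322 full repeats and 113 lines of a symbol with more reads elsewhere were dropped. Date-like names stood in place of 24 symbols (0.126% of reads), which were kept. Positions and exon overlaps came from GENCODE M21 by symbol, which matched 40135 of 40322.

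CPM and tests used edgeR (4.0.16, R 4.3.3): TMM, filterByExpr by group, 1 model of the 4 groups over 16 libraries, robust quasi-likelihood F-test, Benjamini-Hochberg over 21206 genes. DESeq2 (1.42.0) was an alternative, beside other scalings, filters, a replicate block and libraries left out. On simulated counts for the old comparison (20902 genes) 52.0% of 2-fold and 74.0% of 4-fold changes were recovered, and for the difference between ages 11.2% and 51.0%. The simulation changed few genes, up and down alike, and drew each gene independently. Calls in the old mice were many and mostly lower, so these shares may not carry over to the data.

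The members and the 51 gene lists were chosen with earlier results of these data known. Some genes stand in several lists, such as Plin1 and Pnpla2 in the droplet and lipolysis lists. C1qa, C1qb and C1qc are both complement genes and macrophage markers. Counts of different lists are therefore not independent. Named genes are Nampt, the NAD synthesis members, the 12 highest and 12 lowest fold changes with separate libraries and a mean of at least 1 CPM (predicted genes and receptor segments left out), 6 per direction for the difference between ages, up to 6 members with the smallest p per list and the 2 most abundant members of each marker list; a few genes this rule names are not reported here.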

Additional observations from a re-analysis of the deposited data

Results flagged for a closer look

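In 26 of 320 groups of 5 old libraries (160 genes, controls and ANKO separately) 1 library lay far from the other 4 by Dixon's test, which flags about 1 in 20 groups by chance. The genes were picked from the results, so this share describes only them. A library above its group was found for Ache in ANKO 4 (92.3 CPM), Lsamp in ANKO 2 (28.5 CPM), Cyp11a1 in ANKO 5 (11.7 CPM), Sfrp4 in control 1 (28.3 CPM) and Sntg1 in ANKO 1 (16.6 CPM). ANKO 2 was also high for 4 genes that fell in ANKO fat, Cfd (138 CPM), Rbp4 (9.07 CPM), Mlxipl (61.6 CPM) and G6pdx (79.4 CPM), and had the highest summed adipocyte markers of the ANKO libraries (5038 CPM). ANKO 3 was high for Kynu (27.9 CPM), Creld2 (52.3 CPM) and Cnp (114 CPM), and low for Aox1 (23.5 CPM). ANKO 4 was high for Cma1 (35.7 CPM) and ANKO 5 for Bcap29 (11.0 CPM). Control 2 was high for Gys2 (55.2 CPM), Otop1 (34.9 CPM) and C1qa (131 CPM), and low for Il10 (0.170 CPM). Control 5 was high for Tmem45b (426 CPM), Herpud1 (82.0 CPM) and Gsta3 (59.2 CPM). Control 3 was low for Cd34 (73.5 CPM) and high for Ngp (0.670 CPM). The milk gene Csn2 stood out in control 2 (5882 CPM) and in ANKO 5 (805 CPM). Gadd45a was picked out because the ANKO effect differed between ages (difference -2.20 on the log2 scale).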

How the results depend on the processing

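Against 2337 genes called in old mice, alternatives gave 1923 to 3285, except 1149 with the old libraries alone (19503 genes tested, fewer samples) and 1239 without old controls 2 and 5 (fewer samples). Leaving out each old library in turn gave 1539 to 3380. The difference between ages, with 1 call, gave 274 with DESeq2, 11 with library totals, 7 with no filter and 0 with the stricter filter or without old controls 2 and 5. Leaving out each library in turn gave 0 to 79 (79 without old control 3, 51 without young ANKO 1). The cause of these shifts was not tested. With the replicate number as a block there were 2392 calls in old mice and 0 for the difference. Samples that share only a number were not paired: correlations of their deviations were -0.01, -0.04, 0.44, 0.01 and 0.28 in old and 0.05, -0.03 and -0.04 in young pairs. None of the 150 called genes named reversed. Of them, 127 kept the call without each old library in turn, 113 without old controls 2 and 5, 122 with the old libraries alone, and 142 to 150 under the other alternatives, block included. Csn2, never called, reversed to 4.00 (edgeR adjusted p = 0.472) without old controls 2 and 5 and to 3.31 (adjusted p = 0.401) without old control 2; leaving out each old library gave -9.79 to 3.31. Of 51 lists, 26 kept their number of calls within 1.5 times without old controls 2 and 5, and 30 to 50 elsewhere.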

Other observations

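Marker levels of tissues that can border a fat pad varied widely within both groups. Csn2, the milk protein beta-casein, was at 0.172, 5882, 26.4, 4 and 35.2 in controls against 0.767, 0, 0.551, 3.95 and 805 in ANKO libraries, and control 2 and ANKO 5 held nearly all of it (log2 fold change -2.88 ± 2.33, edgeR adjusted p = 0.481). Summed mammary and other epithelial markers were 1350.5 to 12779 CPM in controls against 1822 to 4473 CPM in ANKO libraries, and none of 24 was called. None of 15 keratinocyte or of 7 red blood cell markers was called either. Red blood cell markers were highest in control 2 and ANKO 3, at 891 and 1153 CPM, against 64.2 to 353 CPM in the other old libraries. Mesothelial markers gave 1 of 7 higher, Gpm6a, a membrane glycoprotein also made by neurons, at 2.36, 1.66, 2.2, 2.77 and 2.13 in controls against 4.6, 7.79, 5.34, 6.88 and 2.96 in ANKO libraries (1.31 ± 0.25, adjusted p = 0.00421), and 1 lower, Lrrn4, a leucine-rich repeat protein, at 4.2, 1.12, 2.63, 2.61 and 3.32 in controls against 1.53, 0.345, 0.508, 0.85 and 1.25 in ANKO libraries (-1.62 ± 0.43, adjusted p = 0.0241; -1.78, adjusted p = 0.0263 without old controls 2 and 5; lost without old control 1 or 5 or old ANKO 3 or 4). Of 20 Schwann cell and nerve markers 1, Cnp, was higher (0.58 ± 0.17, adjusted p = 0.0340; 0.40, adjusted p = 0.178 without old controls 2 and 5; lost without old control 2 or 5 or old ANKO 2, 3 or 4). Of the mesothelial and the Schwann cell and nerve markers 28.6% and 5% were called in that order, against 11.0% of all genes. In steroid hormone metabolism Hsd17b4, a peroxisomal enzyme that also breaks down fatty acids, was at 154, 355, 118, 123 and 268 in controls against 73.4, 84, 64.2, 84.8 and 78.1 in ANKO libraries (-1.40 ± 0.26, adjusted p = 0.00335; -0.75 without old controls 2 and 5), 2 of 17 members were lower and 1, Cyp11a1, was higher.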
